A study of Mus musculus with 35 samples.

Results

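SRSF6 and SRSF7 are members of the SR protein family, and their RNA contacts were compared in mouse P19 cells, a pluripotent embryonal carcinoma line. The comparison took the libraries titled for SRSF6 (replicates 1 to 3) and SRSF7 (replicates 1 to 6), which are 9 of the 35 samples of the series. In each line the protein was fused to GFP and expressed from a bacterial artificial chromosome (BAC), a long piece of mouse genomic DNA that carries the gene with its own control regions. The lines were stable clones selected with Geneticin and sorted for GFP, so protein and clone cannot be told apart. All cells were otherwise untreated and carried their own untagged copies of both genes. Cells were irradiated with ultraviolet light at 254 nm, the fusion protein was pulled down with an antibody against GFP, and iCLIP (individual-nucleotide cross-linking and immunoprecipitation) recorded the base next to which reverse transcription stopped. Cells with GFP fused to a nuclear localisation signal served as the control, whose libraries were pooled by the authors.

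SR proteins join 1 or 2 RNA recognition motifs to a tail rich in arginine and serine. They bind exonic enhancers, recruit the spliceosome to nearby splice sites, and stay on the RNA through later steps of its life. SRSF6 has a pair of RNA recognition motifs. SRSF7 has a single one followed by a zinc knuckle, and it shuttles between nucleus and cytoplasm and can bind the export receptor NXF1. Both proteins limit their own amounts through exons that, when included, stop translation early and send the RNA to decay.

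Each value below counts tags, that is, cDNAs of unique cross-link events at listed positions, and levels are given as CPM, the tags scaled to 1000000 listed tags per library. The SRSF6 libraries held 2323026, 1155384 and 2118267 tags. The SRSF7 libraries were far less even. Replicates 4 and 6 held 4459523 and 1102861 tags, and replicates 1, 2, 3 and 5 held 13038, 54936, 42751 and 16556. A single tag was thus worth 76.7 CPM in SRSF7 replicate 1 and 0.224 CPM in replicate 4, and a zero in a small library says little. By the file headers, the SRSF6 libraries and SRSF7 replicates 1 to 3 were sequenced in an earlier year than SRSF7 replicates 4 to 6. Results are therefore also given for the 5 libraries over 1000000 tags, called large below, and for the 6 of the earlier year. Fits of genes and exons to these also took libraries of other proteins of that depth or year, which entered only the estimate of the spread. The later year held no SRSF6 library, and all SRSF7 libraries of the earlier year were small, so no comparison was free of both depth and year. Of 10 pluripotency genes, 8 had at least 3 tags in each of the 5 large libraries. Of 6 markers of liver, blood, heart, glia, leukocytes and fibroblasts, 4 had no tag in any large library and the others reached at most 3 tags.

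The RNA of the tagged gene was read first, because it checks the labels and because each line carries extra copies of it. Tags on Srsf7 reached 39807, 40611, 71203, 14084, 27603 and 21252 CPM in SRSF7 replicates 1 to 6. They reached 402, 492 and 426 CPM in the SRSF6 libraries. The groups did not overlap, and the fitted log2 change (SRSF6 minus SRSF7) was -6.14 ± 0.89 (SE; limma, adjusted p = 2.58e-05). This single gene took 1.41 to 7.12% of all tags in the SRSF7 libraries. Srsf6 held 2000, 2229 and 2097 CPM in the SRSF6 libraries. In SRSF7 replicates 1 to 6 it held 0, 309, 257, 383, 0 and 405 CPM. The groups again did not overlap, but the log2 change of 3.67 ± 0.99 did not pass the test (limma, adjusted p = 0.0912, and 3.82e-06 to 0.482 over 21 alternatives). The pooled control had no tag on either gene, and 3 tags there would be 137 CPM. In every other line of the series Srsf7 stayed at or below 3764 CPM and Srsf6 at or below 893 CPM.

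Several neighbours of the tagged genes differed in the same direction as the tagged gene. Downstream of Srsf6 on chromosome 2, at a distance of 117566 nt, lies Mybl2, which encodes a transcription factor of the cell cycle. Mybl2 held 1131, 1122 and 1127 CPM in the SRSF6 libraries and 0, 54.6, 93.6, 88.1, 0 and 52.6 CPM in SRSF7 replicates 1 to 6. Its log2 change was 4.20 ± 0.98 (limma, adjusted p = 0.0199). Ift52, 80233 nt from Srsf6 and between both genes, held 171, 104 and 145 CPM in the SRSF6 libraries against at most 25.1 CPM in any SRSF7 library, and did not pass the test (log2 change 2.72 ± 0.95, limma, adjusted p = 0.255). L3mbtl1, the nearest annotated gene after Srsf6, had at most 2.15 CPM in any of the 9 libraries.

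Next to Srsf7 on chromosome 17, 3 genes were called higher in SRSF7. Dhx57, a putative RNA helicase 31015 nt from Srsf7, held 1150, 2476, 4631, 5310, 906 and 4629 CPM in SRSF7 replicates 1 to 6 and 83.5, 59.7 and 86.4 CPM in the SRSF6 libraries (log2 change -5.21 ± 1.10, limma, adjusted p = 0.00631). Gemin6, a subunit of the SMN complex that assembles spliceosomal particles, lies 17152 nt away. It held 218, 351, 730 and 649 CPM in SRSF7 replicates 2, 3, 4 and 6, no tag in replicates 1 and 5, and 4.72 to 11.3 CPM in the SRSF6 libraries (log2 change -4.79 ± 1.13, limma, adjusted p = 0.0200). Morn2, 82923 nt away, had 684 tags in the SRSF7 libraries and 2 in the SRSF6 libraries, a ratio of 336 (95% counting interval 92.8 to 2783), and 91.4 CPM in the control. Ttc39d, which starts 171 nt from Srsf7, had tags only in SRSF7 replicates 4 and 6 (128 and 72.5 CPM) and was too low to test. The ends of the BAC inserts are not given in the sources used here, so extra gene copies and a preference of the protein cannot be told apart for Srsf6, Srsf7 or these neighbours. The calls of Mybl2 and Dhx57 were lost when any of the 3 SRSF6 replicates was left out (log2 change 4.20 to 4.21 for Mybl2 and -5.30 to -5.05 for Dhx57). That of Gemin6 was lost without any SRSF6 replicate or SRSF7 replicate 6 (log2 change -5.19 to -4.50).

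**Figure D1:**
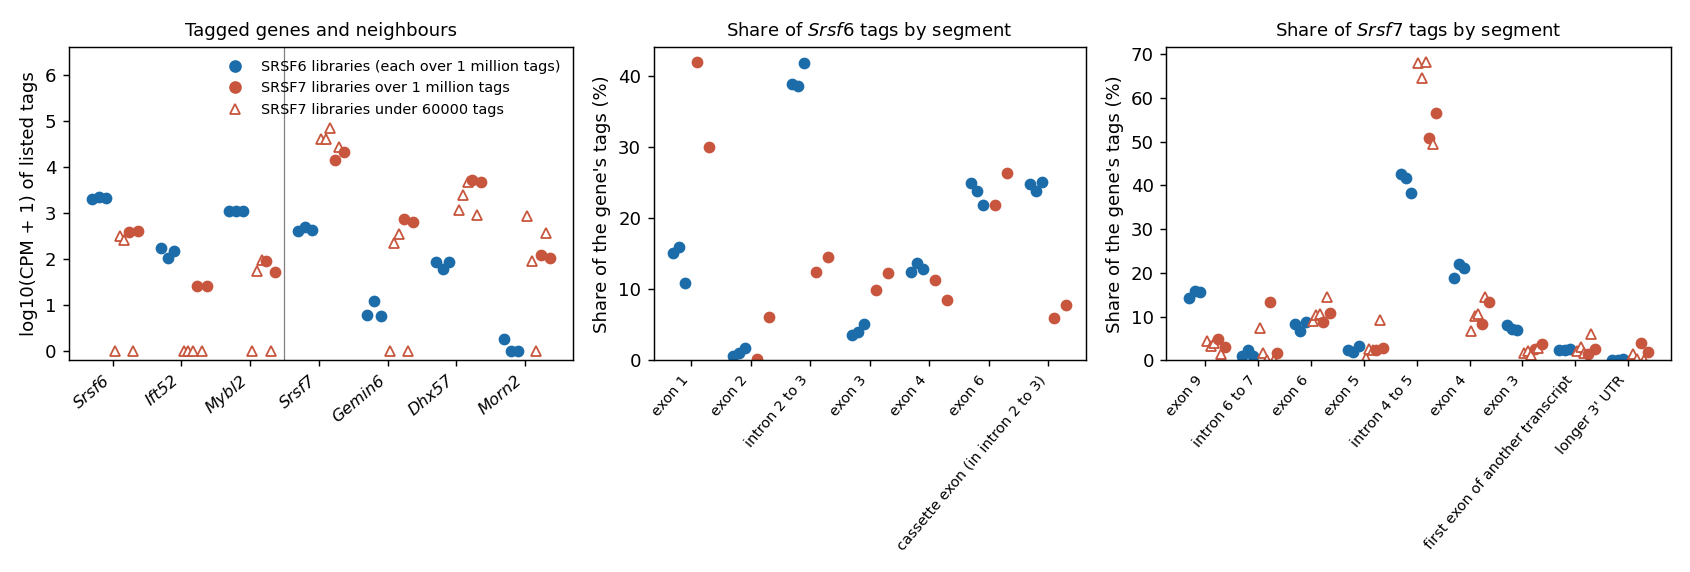
Left, log10(CPM + 1) of the tagged genes and their neighbours; middle and right, the share of the tags of Srsf6 and of Srsf7 in each annotated segment (percent), with 1 point per library and only SRSF7 replicates 4 and 6 shown for Srsf6. Srsf7, Gemin6, Dhx57 and Morn2 sit higher in SRSF7 libraries, and the cassette exon of Srsf6 holds 23.8 to 25.1% of its tags in SRSF6 libraries against 5.98 and 7.83% in the large SRSF7 libraries.

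The distribution of tags along each own RNA was read as shares of the gene's tags. In Srsf6, a cassette exon of 268 nt annotated in a noncoding transcript (chr2:162758551-162758818, plus strand, mm9) lies within the second intron of the coding transcript. It held 24.9, 23.8 and 25.1% of Srsf6 tags in the SRSF6 libraries. It held 5.98 and 7.83% in SRSF7 replicates 4 and 6, and the 4 smaller SRSF7 libraries had 0 to 17 tags on the whole gene. The order was the other way round on exon 1, with 15.1, 16 and 10.9% of Srsf6 tags in SRSF6 libraries and 42.0 and 29.98% in SRSF7 replicates 4 and 6. In Srsf7, intron 4 to 5 of the coding transcript used here (chr17:80603728-80604601, minus strand, 874 nt) held 42.6, 41.7 and 38.2% of Srsf7 tags in the SRSF6 libraries. It held 68.0, 64.6, 68.2, 50.8, 49.5 and 56.5% in SRSF7 replicates 1 to 6, without overlap. The tags do not show how the RNA bound there was spliced. The shares on Srsf7 exon 9 were 15.2% ± 0.88 (SD, n = 3) in SRSF6 libraries and 3.53% ± 1.16 (SD, n = 6) in SRSF7 libraries, and those on exon 4 were 20.7% ± 1.59 and 10.6% ± 2.94. These segments were looked at for their position and are given without a test, and tags on the introduced and the cells' own copies cannot be told apart.

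The sequences below are 29 bases around the strongest listed position (base 15) of exons named in the comparisons and of both own-gene regions, 5′ to 3′ on the strand of the RNA, from the mm9 genome. They are shown so that the contact can be read directly. Capitals mark hexamers of the motif families described further on.

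Prpf4b exon 2, chr13:34975737-34975765, plus strand: ccatccaaAAGAAGcaagtctcaagacca

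Ddx21 exon 2, chr10:62061375-62061403, minus strand: aaccaaagagataataacaGAGGAGcctt

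Srsf6 cassette exon, chr2:162758583-162758611, plus strand: gctaaGATGACtgcctttcctgattggcc

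Rian exon 2, chr12:110888300-110888328, plus strand: gagtcccacCTTCTTCATtagtcttgagg

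Meg3 exon 3, chr12:110787972-110788000, plus strand: ccagcgcgaggacttcacgcacaacacgt

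Srsf7 exon 6, chr17:80603516-80603544, minus strand: aggtctgtgtctcttcgtagatcaagatc

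Srsf7 intron 4 to 5, chr17:80604020-80604048, minus strand: cggctatagatacttctagatcatctaga

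The Prpf4b position had 22, 15 and 36 tags in the SRSF6 libraries and none in any SRSF7 library. The Srsf6 cassette position had 35, 14 and 29 tags against none. The Rian position had none in SRSF6 libraries and 1, 5, 56 and 16 tags in SRSF7 replicates 2, 3, 4 and 6. Other positions were shared. The Ddx21 position had 23, 19 and 19 tags in SRSF6 libraries and 2, 10 and 2 in SRSF7 replicates 1, 4 and 6, and because of the small replicate 1 its mean level was 11.8 CPM in SRSF6 and 26.2 CPM in SRSF7 libraries (2.03 CPM in the large ones). The Srsf7 exon 6 position had 6, 2 and 7 tags in SRSF6 libraries and 10 to 135 in SRSF7 libraries. In all 11 windows were read in this way, and 4 held a family hexamer, all of them among those printed. The 4 windows not printed, of Snord49a, a U6 copy, Srsf7 exon 7 and a further position in the Srsf7 intron, held none. Of all listed positions, 24.0 to 25.6% in SRSF6 libraries and 23.0 to 32.8% in SRSF7 libraries had a family hexamer in a window of 29 bases, and 19.3% of windows of that length along coding sequence did.

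Of 7 motif families, 4 differed between the proteins around the contacts, with the GAA repeat and the GAC and GAT repeat higher in SRSF6 and the T run and the CA repeat higher in SRSF7. SR proteins bind short degenerate motifs, and the families searched on the strand of the tag within 20 nt of each listed position were 7 sets of hexamers. The GAA repeat was GAAGAA or AAGAAG or AGAAGA. The GAC and GAT repeat was GACGAC or GACGAT or GATGAC or GATGAT or ACGACG, and the GGA repeat was GGAGGA or GAGGAG or AGGAGG. The pyrimidine-rich CNTC family was CATCAT or CTTCTT or CTTCAT or CATCTT or CAACAT or CTACTT. A family of the kind selected in vitro with SRSF6 (SELEX) began with TCCG or TGCG and ended with TA, TC, GA or GC. The last families were a run of T (TTTTTT) and a CA repeat (CACACA or ACACAC). Each listed position counted once. The GAC and GAT repeat was in 5.52, 6.07 and 5.80% of SRSF6 windows. In SRSF7 replicates 1 to 6 it was in 2.43, 3.75, 3.68, 4.10, 2.75 and 4.77%, so that the groups did not overlap. The group means were 5.80% ± 0.27 (SD, n = 3) and 3.58% ± 0.87 (n = 6), and 3.22% of control windows held it (95% Wilson interval 2.83 to 3.66%, two-sided exact permutation test, p = 0.0238, the smallest that 84 splits allow, adjusted over 7 families 0.0417). The GAA repeat was in 11.4% ± 0.80 of SRSF6 windows and 8.08% ± 1.12 of SRSF7 windows, with 3.96% (3.52 to 4.44%) in the control, the same exact p and again no overlap. Among the large libraries alone, SRSF6 exceeded SRSF7 by 1.36 percentage points for the GAC and GAT repeat and by 2.50 for the GAA repeat, and among the libraries of the earlier year by 2.51 and 3.30. Without any 1 SRSF6 replicate the differences were 2.08 to 2.35 and 2.86 to 3.62, and no split of the remaining libraries allowed a p below 0.0714 (exact permutation). At the 5000 positions with most tags of each library the GAA repeat went the other way, with a difference of -1.77 percentage points (exact permutation, p = 0.167).

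A pair of families went the other way. The T run was in 3.38% ± 0.12 of SRSF6 windows and 7.99% ± 3.76 of SRSF7 windows, and a CA repeat in 1.15% ± 0.0040 and 1.71% ± 0.34 (exact permutation test, adjusted p = 0.0417 for both, no overlap). The control held the T run in 6.80% (95% Wilson interval 6.23 to 7.42%) and a CA repeat in 1.52% (1.25 to 1.83%). The SRSF6 means lay below both intervals, and the SRSF7 mean of the CA repeat lay inside its interval. For the T run the large SRSF7 libraries also lay below the control. The size of the T-run difference lay in the small libraries. SRSF7 replicates 4 and 6 held it in 4.20 and 3.57% of windows, against 3.27 to 3.50% in the SRSF6 libraries, and the small replicates in 8.13 to 13.9%. The GGA repeat (6.42% and 7.78%), the CNTC family (7.31% and 7.87%) and the SELEX family (2.93% and 3.40%) overlapped between the groups. The control held these in 8.13, 3.84 and 5.73% of windows, so its SELEX share exceeded the means of both proteins. Within the CNTC family the large SRSF7 libraries stood above SRSF6, with 9.73 and 9.87% against 7.27 to 7.33%. For the GGA repeat the large SRSF7 libraries lay below SRSF6, with 4.52 and 5.03% against 6.29 to 6.65%. The higher SRSF7 mean of that repeat came from the small libraries, at 7.05 to 12.5%.

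Coding sequence is purine-rich by itself, and the SRSF6 libraries held more coding tags, so the families were also read only at positions in coding sequence. There the GAA repeat was in 14.3% ± 1.0 of SRSF6 and 12.4% ± 1.7 of SRSF7 windows, the GAC and GAT repeat in 7.37% ± 0.31 and 6.36% ± 0.99, and the CNTC family in 7.48% ± 0.047 and 9.65% ± 1.56. No family passed the adjusted test (exact permutation, smallest adjusted p = 0.167, for the T run). Windows placed every 20 nt along coding sequence held the GAA repeat in 7.25%, the GAC and GAT repeat in 3.58% and the CNTC family in 7.95% of cases. Both proteins lay above this level for the GAA and the GAC and GAT repeats. The 360 coding windows of the control held the GAA repeat in 14.4% (95% Wilson interval 11.2 to 18.5%), the GAC and GAT repeat in 7.22% (4.98 to 10.4%) and the CNTC family in 4.17% (2.54 to 6.76%). The means of both proteins for these 2 repeats lay inside the intervals of the control, and the CNTC means of both proteins lay above it. For the CNTC family, SRSF6 lay below the 7.95% of evenly placed windows and SRSF7 above that level, except SRSF7 replicate 1 at 7.37%.

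**Figure D2:**
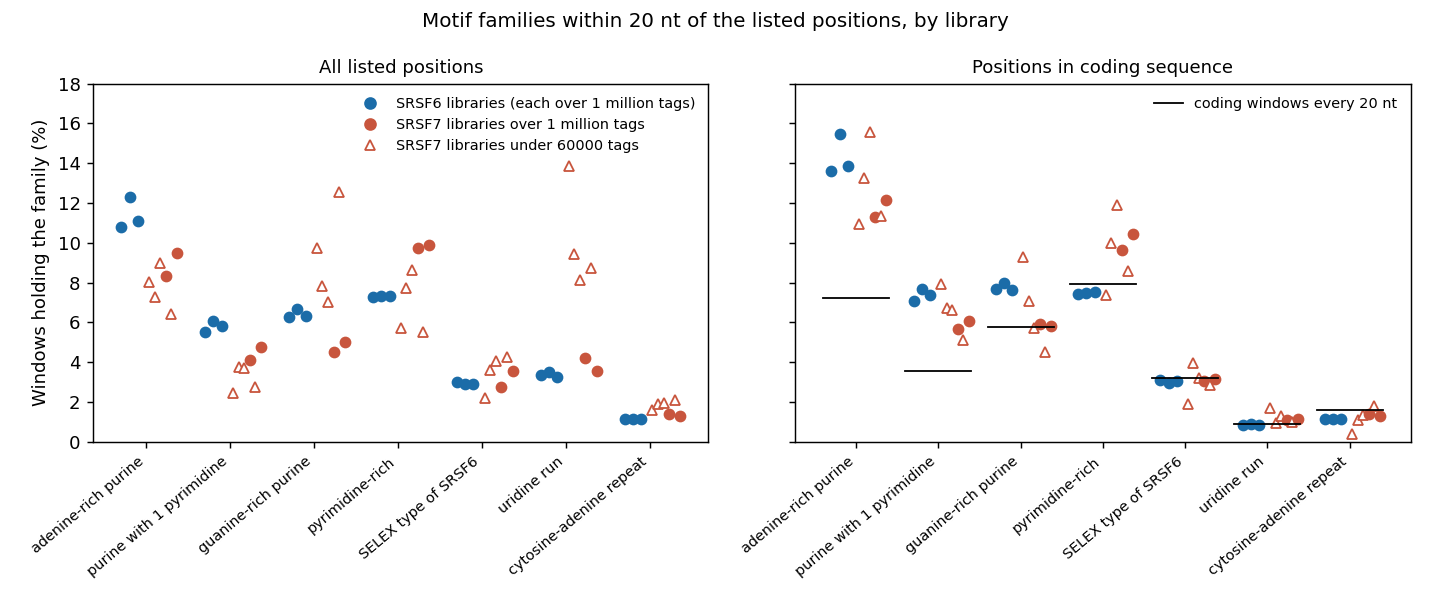
Share of windows (percent) that hold a member of each motif family, at all listed positions (left) and at positions in coding sequence (right), with 1 point per library; from left the families are the GAA repeat, the GAC and GAT repeat, the GGA repeat, CNTC, SELEX, the T run and the CA repeat. At all positions the first 2 sit higher in each SRSF6 library than in any SRSF7 library, and in coding sequence the groups overlap for both.

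The families differed in where they lay around the contact. In coding sequence of the 5 large libraries, CNTC hexamers peaked sharply with their first base 2 nt before the listed position. The peak reached 0.563 to 0.597% of positions in SRSF6 libraries and 0.827 and 0.967% in SRSF7 replicates 4 and 6, which was 2.46 to 2.64 and 3.14 and 3.56 times the mean level 41 to 50 nt upstream. The GAC and GAT repeat had its highest value 3 nt after the position in the SRSF6 libraries (0.330 to 0.378%) and in SRSF7 replicate 6 (0.295%). The GAA repeat formed a broad hill with its top 13 to 15 nt downstream, at 0.891 to 1.07% in SRSF6 and 0.699 and 0.790% in SRSF7 libraries, and it dipped at the contact itself. Relative to the level 41 to 50 nt upstream, the top of the GAA repeat was 1.64 to 1.68 times in SRSF6 and 1.58 and 1.81 times in SRSF7 libraries. That of the GAC and GAT repeat was 2.01 to 2.07 times in SRSF6 and 1.79 and 2.08 times in SRSF7 libraries, so that for both families the SRSF6 values lay between those of the 2 SRSF7 libraries. The SELEX family peaked at the position in all 5 libraries at nearly one level (0.186 to 0.1999%). These profiles are a description and were not tested. Ultraviolet light joins uridine more readily than other bases, and the listed base was T in 40.2 to 40.4% of coding positions in SRSF6 libraries and 42.2 to 51.0% in SRSF7 libraries, where replicate 1 had only 529 coding positions.

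**Figure D3:**
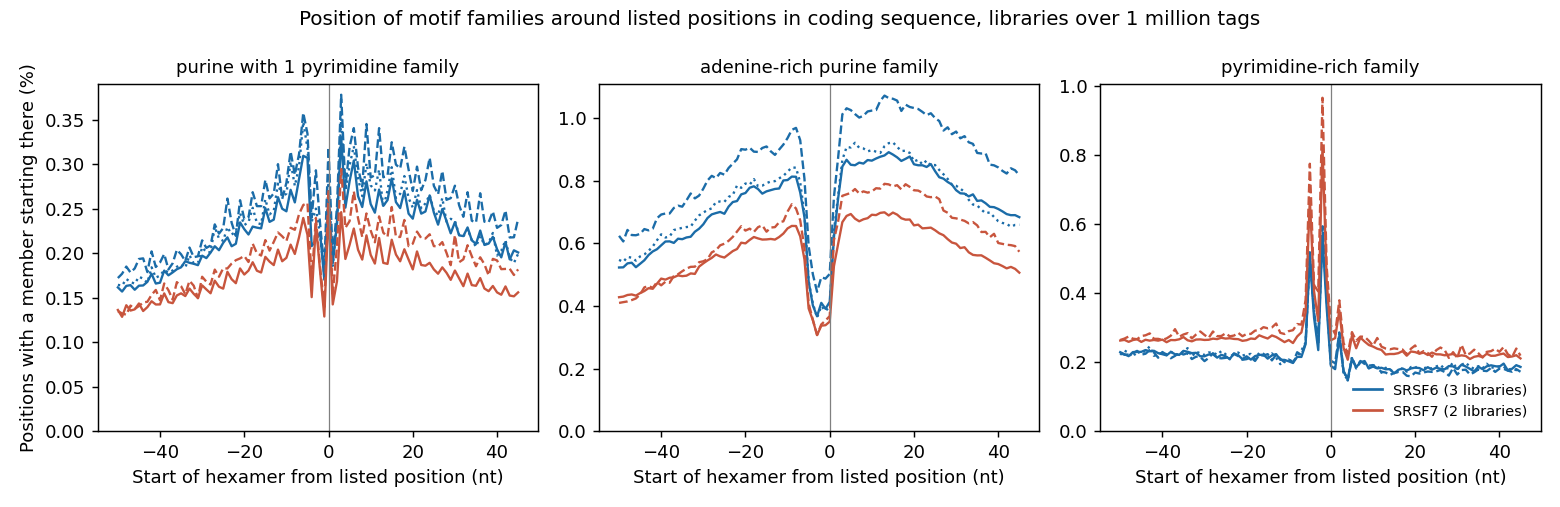
Percent of listed positions in coding sequence at which a family hexamer starts at the given distance (nt, negative is upstream), for the GAC and GAT repeat, the GAA repeat and CNTC (left to right); each line is 1 library over 1000000 tags. SRSF6 lines run above SRSF7 lines for the first 2 families, and the CNTC peak 2 nt upstream is higher in SRSF7.

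A count over all pentamers called 0 between the 9 libraries (0% of those tested; limma, adjusted p under 0.05), and 278 had an unadjusted p under 0.05. GATGA was in 9.32, 10.2 and 9.70% of SRSF6 windows and 3.19, 6.06, 6.29, 7.02, 4.56 and 7.71% of windows of SRSF7 replicates 1 to 6 (log2 change 0.80 ± 0.23, limma, adjusted p = 0.128). In a fit to the 5 large libraries, 327 pentamers were called (31.9%), 162 higher in SRSF6 (15.8%) and 165 higher in SRSF7 (16.1%). In the libraries of the earlier year 392 were called (38.3%), and at coding positions of the large libraries 642 (62.7%), of which 405 were higher in SRSF7 (39.6%). The calls without SRSF7 replicate 4 were 98, and without replicate 6 they were 16. In the large libraries GATGA had 9.75 against 7.37%, AGATG 10.1 against 7.63%, AGAAG 14.7 against 11.4% and GACGA 2.86 against 2.22%. Pentamers of the GGA type were also higher in SRSF6 there, with GGATG at 6.02 against 4.58%, GAGGA 10.4 against 8.06% and GGAGG 7.52 against 5.82%. At coding positions of these libraries so were C-rich ones, with CCCCC at 3.08 against 2.36% and GCCCC at 3.86 against 2.98%. Higher in SRSF7 were CTTCA (6.26 against 8.53%), CTTCG (1.99 against 2.77%), TCGTC (1.32 against 1.95%) and TTCGT (1.26 against 1.72%). GGTAA and GTAAG, which match the start of introns at 5′ splice sites, were also higher in SRSF7, at 1.86 against 2.60% and 1.96 against 2.74%.

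Among transcript regions, coding sequence showed the widest gap, and small SRSF7 libraries made most of it. Coding sequence took 52.0, 53.1 and 50.6% of tags off the mitochondrial genome in the SRSF6 libraries. In SRSF7 replicates 1 to 6 it took 6.64, 17.4, 18.8, 49.5, 10.8 and 49.1%. Every SRSF6 library exceeded every SRSF7 library (exact permutation test, two-sided, p = 0.0238, adjusted over 9 shares 0.107), but the large SRSF7 libraries lay only 2.55 percentage points below the SRSF6 mean. Introns held 10.9% ± 1.7 (SD, n = 3) and 18.5% ± 5.4 (n = 6), with 16.7 and 11.3% in the large SRSF7 libraries (exact permutation test, adjusted p = 0.143). Positions outside genes held 15.2 to 16.2% of tags in SRSF6 libraries, 13.7 and 14.4% in the large SRSF7 libraries and 30.99 to 44.6% in the small ones. The 3′ UTR shares were 7.57% ± 1.12 and 5.31% ± 1.76, and the 5′ UTR shares 2.77% ± 0.33 and 2.98% ± 1.57. No share passed after adjustment.

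**Figure D4:**
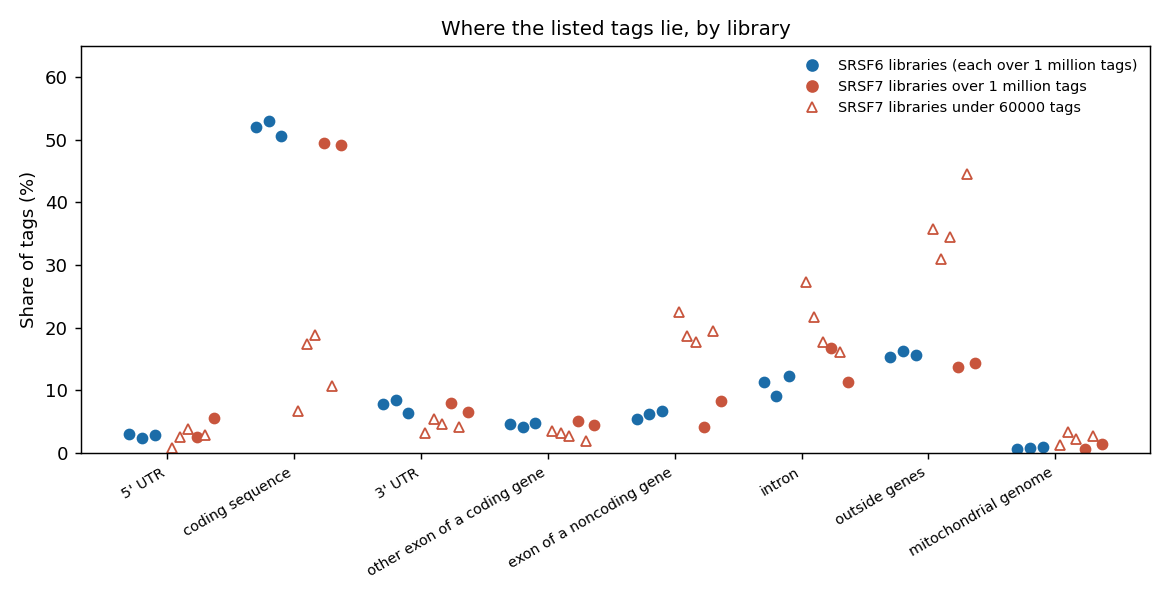
Share of listed tags (percent) by transcript region, with 1 point per library. In coding sequence the SRSF6 libraries lie at 50.6 to 53.1%, the large SRSF7 libraries at 49.1 and 49.5% and the small SRSF7 libraries at 6.64 to 18.8%.

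Shares by position on the exon overlapped in every case. Internal exons held 74.7% ± 1.8 of exonic tags in SRSF6 and 66.7% ± 7.5 in SRSF7 libraries, first exons 5.58% ± 0.71 and 11.2% ± 5.1, and last exons 19.8% ± 2.1 and 22.1% ± 7.7 (exact permutation tests, smallest adjusted p = 0.222 over 7 shares). Within 50 nt of a 5′ splice site lay 12.8% ± 2.4 of exonic tags for SRSF6 and 15.7% ± 2.5 for SRSF7, and within 50 nt of a 3′ splice site 32.1% ± 0.32 and 29.6% ± 4.8. On the intron side, within 100 nt of a 5′ splice site, SRSF6 had 14.1 to 16.5% of intronic tags and the large SRSF7 libraries 25.0 and 19.3%. The small SRSF7 libraries had 3.75 to 12.02% there, so that the groups overlapped (adjusted p = 0.800, exact permutation). A pair of shares added after seeing the data concerned 3′ ends, since SRSF7 has been studied for its part in 3′ end processing. The first 100 nt of the last exon held 25.1% ± 0.44 and 19.9% ± 7.1 of last-exon tags, and the first 200 nt of the 3′ UTR held 45.2% ± 3.3 and 34.1% ± 9.8 of its tags (exact permutation, adjusted p = 0.333 and 0.190).

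Of 4340 genes tested, 22 were called (0.507%; limma-voom over 31 libraries, adjusted p under 0.05), with 6 higher in SRSF6 (0.138%) and 16 higher in SRSF7 (0.369%). The median log2 change over all tested genes was 0.83, a shift toward SRSF6 that became 1.27 with trimmed-mean scaling, 0.27 with totals over coding genes and -0.07 in the large libraries. Changes are therefore to be read against that median. With these same 2 scalings the calls split into 2 and 12, and 6 and 37. Without a CPM minimum the median was -0.36, with 21 genes higher in SRSF6 and 784 in SRSF7. With at least 10 tags in 3 libraries the median was 0.13 and the calls were 5 and 27. The filter of 42.1 CPM in 3 libraries could be met by the SRSF6 libraries alone, but not by the large SRSF7 libraries alone. All 22 kept their direction in every alternative in which they were tested, but the count moved with the libraries used. It was 12, 11 and 12 without SRSF6 replicates 1, 2 and 3, 45 without SRSF7 replicate 4, 62 when only the 9 libraries set the spread, and 871 (20.1%) in the large libraries alone, where 385 were higher in SRSF6 (8.87%) and 486 in SRSF7 (11.2%). In the libraries of the earlier year it was 98 (2.26%), with 50 higher in SRSF6 (1.15%) and 48 in SRSF7 (1.11%). Every SRSF6 library lay above every SRSF7 library in 14.2% of tested genes and below in 0.253%. The second case needs a tag in each SRSF7 library, also the small ones, so depth enters these shares and they cannot be compared directly.

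Prpf4b, which encodes a kinase that acts on the spliceosome, was the most heavily tagged gene called higher in SRSF6. It held 2923, 3348 and 3038 CPM there and 0, 109, 0, 345, 121 and 286 CPM in SRSF7 replicates 1 to 6 (control 183 CPM). The log2 change was 5.04 ± 1.15 (limma, adjusted p = 0.0145). In the 6 remaining lines its median lay between 54.7 and 402 CPM. The call was lost without any of the SRSF6 replicates or without SRSF7 replicate 3, where the log2 change was 4.33 to 5.08. Within the gene, exon 2 carried the largest change, with 897, 1050 and 908 CPM in SRSF6 libraries, 44.6 and 19.9 CPM in SRSF7 replicates 4 and 6 and 0 in the others (log2 change 5.42 ± 0.96, limma, adjusted p = 0.000152). This is the exon of the AAGAAG contact shown above, and 4 of 6 tested exons of Prpf4b were called.

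Strc and Adam12 were present with SRSF6 and nearly absent with SRSF7. Strc encodes stereocilin, a protein of the hair bundles of the inner ear, and held 1818, 1497 and 926 CPM in SRSF6 libraries. In the SRSF7 libraries it had 2 tags in all, both in replicate 3, a ratio of 4023 (95% counting interval 1113 to 33227). Adam12, a membrane metalloprotease, held 986, 991 and 820 CPM against 0, 109, 93.6, 4.71, 0 and 3.63 CPM (log2 change 5.39 ± 0.97, limma, adjusted p = 0.00062). Both genes were also high in the SRSF3 lines (2705 to 3531 CPM for Strc and 1312 to 1380 for Adam12) and in SRSF4 lines, and at most 14.3 CPM in the SRSF1 and SRSF5 libraries. In libraries labelled SRSF2, some with another protein's name in the header, Strc held 0 to 985 CPM and Adam12 135 to 518 CPM. Agbl1 and Eef1d were called in the same direction at lower levels. Agbl1 had 1661 tags in SRSF6 libraries and none in SRSF7 libraries, at least 563-fold more listed tags (3 tags over the pooled group). Positions that did not pass the authors' threshold are not listed, so this bounds listed tags and not the contact itself.

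The reverse pattern was found in long noncoding RNAs of a single locus. Meg3, Rian and Mirg are neighbouring, maternally expressed noncoding genes of an imprinted domain on chromosome 12. Meg3 held 1584, 1216, 927 and 1028 CPM in SRSF7 replicates 2, 3, 4 and 6, with no tag in replicates 1 and 5. It had 2 tags in the 3 SRSF6 libraries together, a ratio of 2659 (95% counting interval 736 to 21960), and 137 CPM (3 tags) in the pooled control. Rian held 237, 585, 643, 181 and 501 CPM in SRSF7 replicates 2 to 6 and at most 1.72 CPM in SRSF6 libraries (log2 change -8.79 ± 1.33, limma, adjusted p = 2.66e-05). Mirg had no tag in SRSF6 and 1537 in SRSF7 libraries, at least 504-fold more listed tags (3 tags over the pooled group), again a bound on listed tags only. All 3 had no tag in the SRSF3 libraries and were tagged in the SRSF1, SRSF5 and NXF1 lines, with median levels of 966, 65.4 and 470 CPM for Meg3. They also had tags in libraries labelled SRSF2 and SRSF4, where Meg3 had medians of 0 and 50.2 CPM and reached 270 and 97.1 CPM. RNA levels in the separate lines were not analysed here, so the amount of these RNAs in a clone and their contact with the protein cannot be told apart for Strc, Adam12, Meg3, Rian or Mirg.

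The remaining named genes higher in SRSF7 were 2 copies of U6, the snRNA at the heart of the spliceosome. The copy on chromosome 1 held 997, 146, 46.8, 2.92, 1510 and 24.5 CPM in SRSF7 replicates 1 to 6 and 0 to 1.72 CPM in SRSF6 libraries. The copy on chromosome 11 held 1227, 200.2, 327, 3.14, 362 and 32.6 CPM against 0 to 6.89 CPM, and 183 CPM in the control. The high values were in the small SRSF7 libraries, and in a fit to large libraries the log2 changes were -2.54 and -0.69 (limma, adjusted p = 0.281 and 0.725, and 6.97e-05 to 0.281 and 0.000939 to 0.779 over all alternatives). U6 copies are near-identical, so the assignment of a tag to either is uncertain. The call of the first was lost without SRSF6 replicate 3 (log2 change -5.74) and that of the second without any SRSF6 replicate or SRSF7 replicate 1, 2, 3 or 5 (-6.07 to -4.24). The other called genes, all under a mean of 100 CPM, were Uty, Fbn1, Slc38a4, Slc26a7, Meis2, Epha4 and Rnf130.

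**Figure D5:**
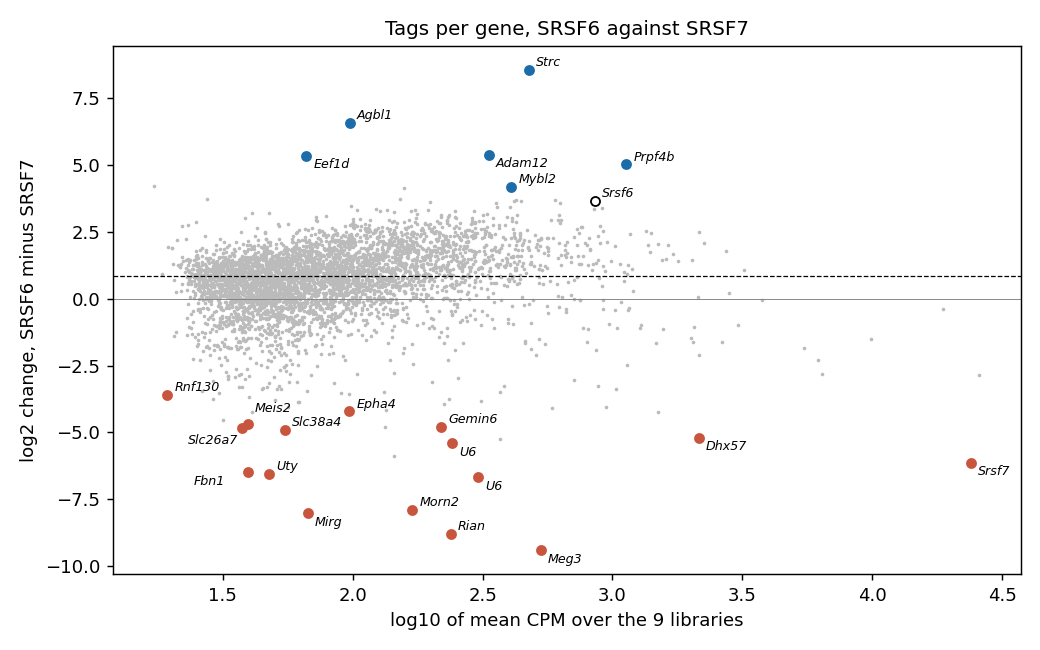
Fitted log2 change (SRSF6 minus SRSF7) of each tested gene against log10 of its mean CPM over the 9 libraries; coloured points are the 22 called genes, the open point is Srsf6 and the dashed line is the median of 0.83. Srsf7 and Dhx57 stand apart at high CPM below 0, and Prpf4b, Mybl2, Strc and Adam12 above it.

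Among exons of representative transcripts, 46 of 2303 tested were called (2%; limma-voom, adjusted p under 0.05), with 10 higher in SRSF6 (0.434%) and 36 higher in SRSF7 (1.56%). Most fell in the genes above. Srsf7 gave 7 of 7 tested exons, Dhx57 13 of 13, Gemin6 2 of 3 and Meg3 3 of 3. Strc gave 2 of 2 and Adam12 1 of 2. The counts were 30, 23 and 27 without SRSF6 replicates 1, 2 and 3, 757 when only the 9 libraries set the spread, and 1044 (45.3%) in the large libraries, where 835 were higher in SRSF6 (36.3%) and 209 in SRSF7 (9.08%). In the libraries of the earlier year it was 53 (2.3%), with 8 higher in SRSF6 (0.347%) and 45 in SRSF7 (1.95%). Trimmed-mean scaling split the calls into 15 and 32 and totals over coding genes into 7 and 47. The split turned with the filter. Without a CPM minimum 118 exons were higher in SRSF6 and 7942 in SRSF7, and the median log2 change went from 1.14 to -0.998. With at least 10 tags in 3 libraries the calls were 6 and 143. The filter of 42.1 CPM in 3 libraries could be met by the SRSF6 libraries alone, but not by the large SRSF7 libraries alone. Every SRSF6 library lay above every SRSF7 library in 34.1% of tested exons and below in 0.478%, shares that depend on depth in the same way as for genes.

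Outside those genes, Ddx21 exon 2 was called higher in SRSF6. Ddx21 is a nucleolar RNA helicase, and the exon held 719, 943 and 609 CPM in SRSF6 libraries against 230, 0, 0, 150, 0 and 88.0 CPM in SRSF7 replicates 1 to 6 (log2 change 4.20 ± 1.16, limma, adjusted p = 0.0386). It was the 1 called exon of 5 tested in the gene, and its call was lost without any SRSF6 replicate or SRSF7 replicate 2, 3 or 5 (log2 change 3.72 to 4.37). Snord49a, a small nucleolar RNA that guides methylation of ribosomal RNA, held 242, 203 and 531 CPM in SRSF6 libraries, and 102 and 34.5 CPM in SRSF7 replicates 4 and 6 with none in the others (log2 change 3.40 ± 0.96, limma, adjusted p = 0.0468). Its call was lost in 7 of 9 fits that left out 1 library (log2 change 3.02 to 3.81 over the 9), and only SRSF7 replicates 1 and 4 could be left out without losing it. In the opposite direction, Srsf7 exon 6 held 33.1, 32.9 and 37.3 CPM in SRSF6 libraries against 3605, 4187, 7555, 1235, 3986 and 2313 CPM in SRSF7 replicates 1 to 6 (log2 change -6.63 ± 1.02, limma, adjusted p = 1.52e-05). Dhx57 exon 7 held 0 to 4.30 CPM in SRSF6 libraries and 273, 491, 188 and 251 CPM in SRSF7 replicates 2, 3, 4 and 6, with no tag in replicates 1 and 5. Small noncoding RNAs made up 8 of the 36 exons higher in SRSF7, among them 4 copies of U6, and 1 of the 10 higher in SRSF6, against 5.64% of tested exons (130 of 2303). In the large libraries 3 of those 8 were called, with log2 changes from -5.48 to 0.28 over the 8, and in the pooled control they held 0 to 1005 CPM, with 3 of them at 0.

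To ask where on an RNA the proteins differ, apart from how many tags the RNA had, the change of each exon was set against that of the other exons of its gene. Of 1396 exons, 1 was called (0.0716%; limma diffSplice, adjusted p under 0.05). It was exon 3 of Matr3, which encodes a protein of the nuclear matrix, and was named after its values were seen because its mean of 32.6 CPM lay outside the rule. It held 5.17, 0 and 10.4 CPM in the SRSF6 libraries and 0, 109, 93.6, 28.0, 0 and 47.2 CPM in SRSF7 replicates 1 to 6, and its difference from the other exons was -6.03 on the log2 scale (adjusted p = 4.79e-05). It was not called without SRSF6 replicate 2, where 0 exons were called by limma and 17 had an unadjusted p under 0.05. In simulated data this test also called exons that had not been changed. Most lay in genes where another exon had been changed, and some in genes without any change. That simulation held many changed exons, so its count cannot be set against the 1 call here. In the large libraries alone, 308 exons were called (22.1%), 154 in each direction (11%), and in those of the earlier year 2 (0.143%).

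SR protein genes, whose own RNAs many SR proteins bind, had 12 of 13 members tested and 1 called, Srsf7, with a median log2 change of 1.63 against 0.83 over all tested genes. That median was 0.24 in the large libraries against -0.07 over all genes, with 2 members higher in SRSF6 and 1 in SRSF7. Srsf1 held 1295, 1354 and 1512 CPM in SRSF6 libraries and 0, 400, 1146, 777, 0 and 1414 CPM in SRSF7 replicates 1 to 6. Of 24 hnRNP genes, none was called, with a median of 1.57 (0.20 in the large libraries), and in the large libraries 1 was higher in SRSF6 and 2 in SRSF7. Hnrnpu held 1927, 2457 and 1765 CPM against 0, 255, 1123, 1721, 121 and 1142 CPM. The 20 kinases and scaffolds of nuclear speckles had 1 call, Prpf4b, and a median of 1.84 (0.20 in the large libraries). In the large libraries alone 5 of them were higher in SRSF6 and 1 in SRSF7, against 8.87 and 11.2% of all tested genes.

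Genes of 3′ end processing and export, processes for which SRSF7 has been studied, gave no call in the 9 libraries. In the large libraries 1 of the 3′ end genes was higher in SRSF7, and 1 of the export genes was higher in SRSF6 and 2 in SRSF7. In the libraries of the earlier year, 1 of the 3′ end genes was higher in SRSF6. Of all tested genes, 8.87% were higher in SRSF6 and 11.2% in SRSF7 in the large libraries. In those of the earlier year the shares were 1.15 and 1.11%. Of 15 tested 3′ end processing genes the median change was 1.52, and 0.27 in the large libraries. Cpsf6, a subunit of the cleavage factor that binds upstream of poly(A) sites, held 449, 483 and 680 CPM in SRSF6 libraries and 690, 419, 304, 845, 0 and 829 CPM in SRSF7 replicates 1 to 6. It was the gene called in the large libraries (log2 change -0.66, limma, adjusted p = 0.0316). Papola, the poly(A) polymerase, held 458, 520 and 460 CPM against 0, 182, 70.2, 535, 0 and 523 CPM. The 12 tested export genes had a median of 1.43 (0.06 in the large libraries), and Tpr, a protein of the nuclear pore basket, held 958, 1222 and 873 CPM against 0, 0, 585, 1193, 0 and 800 CPM. In 5 of the 15 genes of 3′ end processing both large SRSF7 libraries lay below every SRSF6 library, in 3 above and in 7 they overlapped. Among the 12 export genes these counts were 4, 3 and 5. The same counts were not taken over all tested genes, so nothing is read from them about these lists.

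Of 10 tested long noncoding RNA genes, 3 were called, all higher in SRSF7 and all from the Meg3 locus, with a median of 1.33 (0.13 in the large libraries, where 1 was higher in SRSF6 and 3 in SRSF7). Malat1, an abundant RNA of nuclear speckles, held 10705, 12989 and 17906 CPM in SRSF6 libraries and 27151, 39410, 17450, 6417, 10087 and 26217 CPM in SRSF7 replicates 1 to 6, with overlap. The 18 ribosomal protein genes (median 0.88, and -0.13 in the large libraries) and 12 replication-dependent histone genes (median 0.57, and 0.05) gave no call. Called in the large libraries were 2 ribosomal protein genes, higher in SRSF7, and 1 histone gene, higher in SRSF6. Of all tested genes, 8.87% were higher in SRSF6 and 11.2% in SRSF7 in the large libraries. In the fit to all 31 libraries the shares were 0.138 and 0.369%. Rpl7a held 410, 325 and 627 CPM against 920, 947, 4210, 505, 664 and 747 CPM, and Hist1h4d held 293, 525 and 312 CPM against 0, 2093, 1567, 470, 5255 and 951 CPM. For all lists, a count of 0 came with 496 of 4340 genes at an unadjusted p under 0.05 in limma.

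Libraries of 1 protein were only slightly more alike than libraries of both. With every library thinned to 10000 tags, the mean Spearman correlation over exons was 0.0383 within and -0.00635 between proteins, a difference of 0.0446 (two-sided exact permutation test over 84 splits, p = 0.0238). Over genes the difference was -0.0222 (exact p = 0.929), and without thinning it was -0.0204 (exact p = 0.857). Without SRSF6 replicate 1, 2 or 3 the difference was 0.0428, 0.0490 and 0.0444, where 28 splits allow no p below 0.0714 (exact permutation). In the thinned data the highest correlations were among the small SRSF7 libraries, at 0.0648 to 0.122, and SRSF6 pairs had 0.00938 to 0.0492. SRSF7 replicates 4 and 6 correlated at -0.0546, within the -0.0651 to -0.0259 of large pairs of both proteins. The part of depth in the tested difference was not tested. As a description, the unthinned exon correlation of the 5 large libraries was 0.680 to 0.734 within SRSF6, 0.654 between both SRSF7 libraries and 0.511 to 0.642 between the proteins, with depth shared unequally among the pairs.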

How the data were processed

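The authors sequenced iCLIP cDNAs (CASAVA 1.4 and mm9 per the submitters' processing notes, aligner not given in the sources used here). Per the file headers, the deposited files list cDNA counts at single positions that passed a false discovery rate of 0.05, with the sign giving the strand, so absent positions are not zeros. The control libraries were summed by the authors. Tags were summed by strand over genes, and exons of 1 representative transcript a gene, of GENCODE vM1 (NCBIM37, the same build as mm9). Genes were tested at 42.1 CPM in at least 3 of the 9 libraries and 15 tags in all, with limma 3.58.1 (R 4.3.3): voom on all 31 SR protein and NXF1 libraries, which share the spread, diffSplice for exons within genes and limma-trend on log2 of window shares (pseudocount 0.01%), with Benjamini-Hochberg adjustment. Libraries labelled SRSF2 replicates 2 and 5 carry another protein's name in their headers and entered only that spread. Shares and likeness were tested by exact permutation (Python 3.11.15, SciPy 1.17.1). Intervals cover counting error only. Labels call replicates biological, with no cultures named. The fits were tested on simulated data.

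Named were the tagged genes and nearest neighbours, up to 8 called genes and exons per direction with a mean of at least 100 CPM and the same sign in libraries over 1000000 tags, and 2 to 4 members per gene list. The members and lists were chosen with earlier results of these data known. Alternatives concerned scaling, filters, depth, run year, weights, windows, single libraries and replicate numbers.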

Additional observations from a re-analysis of the deposited data

Results flagged for a closer look

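In 6 of 50 groups of 6 SRSF7 libraries, 1 library lay far from the other 5 relative to the whole range. Chance gives about 1 in 20 only for independent, normally spread values of equal precision. These libraries differ widely in depth, so the count is not read as an excess. Replicate 1, with 13038 tags, had the highest share of exonic tags in last exons, 37.1%. It also had the highest level of the U6 copy on chromosome 11, 1227 CPM as a gene and again, from the same tags, as its only exon. Replicate 3 had the 2 tags on Strc that made 46.8 CPM. Replicate 4 had the highest level of the Snord49a exon, 102 CPM, and the most listed tags, 4459523. The part of depth in these values was not tested.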

How the results depend on the processing

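Counts of calls depended on depth and on the spread. Values are given for genes, then exons, then exons by share of their gene. Calls numbered 14 genes with trimmed-mean scaling and 43 with coding totals. They numbered 149 exons and 23 by share with 10 tags in 3 libraries, 805, 8060 and 73 without a CPM minimum, 62, 757 and 40 in the 9 libraries alone, 656, 985 and 79 with array weights, and 122 genes and 1164 exons with limma-trend. They numbered 871, 1044 and 308 in the large libraries, 98 genes and 2 by share in the earlier year, 27 exons and 0 by share after thinning (4 by share at an unadjusted p under 0.05), and 41, 17 and 7 in lanes that held both proteins, with the lane as a block. Pentamer calls numbered 318 at the 5000 positions with most tags, 327 in the large libraries, 392 in the earlier year and 642 at coding positions of the large libraries. Leaving out 1 library gave 11 to 45 genes, 23 to 62 exons, 0 to 1 by share and 0 to 98 pentamers. In percentage points, SRSF6 minus SRSF7, the large libraries gave 2.55 for coding sequence, -3.09 for introns, 0.155 for overlapping genes, 2.50 for the GAA repeat, 1.36 for the GAC and GAT repeat, -0.506 for the T run and -0.186 for the CA repeat. The earlier year gave, in that order, 37.6, -11.3, 0.275, 3.30, 2.51, -7.08 and -0.674. Each position counted once gave -8.55 for introns, -18.1 outside genes and 0.0558 for overlapping genes. The 5000 positions gave -1.77 for GAA, -1.74 for CNTC, 1.74 for SELEX and -0.567 for CA, and coding positions 1.89 for GAA, 1.02 for GAC and GAT and -0.0638 for CA. Likeness was -0.0222 over genes, -0.0204 unthinned, 0.0583 in the large libraries, 0.0410 in the earlier year and 0.0376 to 0.0524 without 1 library. Without 1 library, differences were 22.8 to 31.4 for coding sequence, -8.98 to -5.79 for introns, 0.179 to 0.285 for overlapping genes, -1.47 to -0.903 for the mitochondrial genome, -11.2 to -7.54 for exons of noncoding genes, -6.90 to -4.05 for first exons, 5.74 to 9.93 for internal exons, 2.86 to 3.62 for GAA, 1.99 to 2.46 for GAC and GAT, -5.49 to -3.43 for the T run and -0.647 to -0.479 for CA. With 5 or 6 libraries no permutation p below 0.2 or 0.1 is possible. With the replicate number as a block, 54 genes and 398 pentamers were called, and the shares had the differences of the earlier year (same 6 libraries). The labels do not say that numbers pair samples, and deviations of same-numbered libraries correlated at 0.0934, -0.0459 and 0.175 over exons, with 1 of 3 SRSF6 libraries correlating best with its own number. The cause of these shifts was not tested. Chosen after seeing the data were the lane block, the year for shares, families and likeness, the 10-nt window for families, the added 3′ end shares, and pentamers at coding positions of large libraries. Of 293 repeats of named genes, 243 kept the outcome of the fit to all 31 libraries, 43 lost the call, 7 gained it and 0 reversed. The 243 include fits in which Srsf6, not called there, again was not called.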
